A study of Mus musculus with 4 samples.

Results

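Expression of 10 genes for secreted growth factors, Gdnf, Fgf2, Lif, Csf1, Igf1, Wnt5a, Bmp4, Hgf, Tgfb1 and Ptn, was followed in primary spermatogonial cultures of the mouse. They were chosen by symbol, 10 of the 32285 genes counted, as factors that the cells of a culture niche could supply. Thy1-positive cells from testes of 3 male mice at postnatal day (PND) 6 had been grown on feeders of the STO line, which are fibroblasts of mouse embryos, in a medium that already contained recombinant human GDNF and basic FGF, and the groups are set apart in the labels by what was then added. The vehicle group received PBS and the EV group received 1 μg/mL of extracellular vesicles (EVs) from testes of PND7 mice, each for 3 days. Single-cell RNA counts were analysed for vehicle 1, vehicle 2 and EV 1, whereas of EV 2 the 6794 cell barcodes were read and the expression was not analysed here. The EV group is therefore 1 library, so that no difference between the groups has a replicate check and none was tested.

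Spermatogonial stem cells depend on factors made by the somatic cells around them. GDNF, bound by the receptors GFRA1 and RET, is the classical self-renewal factor of these cells, FGF2 acts beside it, and CSF1, IGF1, WNT5A and LIF have each been used or described as niche signals. In culture the somatic niche of the testis is largely replaced by the feeder layer, whose own secreted factors reach the germ cells through the shared medium.

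A cell was called a feeder cell when it held at least 2 UMIs (unique molecular identifiers, 1 per captured RNA molecule) of Col1a1, Col1a2, Sparc and Dcn together and more than of the germ cell genes Dazl, Tex15, Stk31 and Epcam, and a germ cell by the reverse rule. None of the growth factors enters that rule. After filtering the 3 libraries held 10024458 to 24073818 UMIs in 4779 to 8637 cells. Before filtering at most 20 barcodes were shared by any pair of the 3. Feeder cells numbered 2346, 2477 and 2510 in vehicle 1, vehicle 2 and EV 1, and germ cells 4421, 4780 and 226. Unclassified cells made up 18.1%, 16.0% and 42.8%. Those of EV 1 carried more of the fibroblast markers (3840 UMIs per 1000000 UMIs of the class, or CPM, beside 2478 and 2571 CPM) and less of the germ cell markers (33.4 CPM, beside 234 and 209 CPM), so that part of the fibroblast-like cells of EV 1 lay outside the feeder class. Median UMIs per feeder cell were 3620.5, 3899 and 2447.5. The summed feeder profile of EV 1 stood apart: its chi-square per degree of freedom against the vehicle libraries was 21.9 and 22.1, compared with 2.28 between the vehicle libraries.

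The feeder class carried the markers of fibroblasts, a list of 12 genes at 5141, 5193 and 5408 CPM in vehicle 1, vehicle 2 and EV 1. Vim, S100a4 and Fn1 gave most of that sum. Of the 12 genes 8 were lower in EV 1 than in both vehicle libraries, among them Pdgfrb at 14.6 CPM in vehicle 1 and 5.15 CPM in EV 1, Pdgfra at 168, 171 and 113 CPM and Col3a1 at 180, 191 and 122 CPM, and Lum had 0, 3 and 2 UMIs. Y-linked genes, which mark the cells of the male pups, were at 4.00, 3.90 and 0.441 CPM in feeder cells and at 176, 183 and 194 CPM in germ cells. Germ cell markers in feeder cells were at 16.1, 13.3 and 3.53 CPM. Among lists for somatic testis cells, that for Sertoli cells summed to 293, 309 and 288 CPM, of which Sox9 gave 281, 297 and 273 CPM, while Amh, which defines immature Sertoli cells, had 0, 2 and 0 UMIs. By any margin EV 1 was above both vehicle libraries for 4 of its 7 genes (Wt1, Gata4, Inha and Fshr) and below both for 2. Inha was at 4.42, 4.36 and 6.33 CPM, and Wt1 had 13, 10 and 12 UMIs. The macrophage list summed to 15.1, 10.9 and 22.8 CPM, of which Cd68 gave 6.74, 6.12 and 17.8 CPM, while C1qb was at 0 in the 3 libraries and C1qa had 1, 0 and 0 UMIs. Lyz2 went the other way, at 6.42, 2.60 and 2.21 CPM. Of the 7 macrophage genes 2 were above both vehicle libraries in EV 1 and 1 below both, by any margin. The Leydig list summed to 4.42, 3.43 and 2.35 CPM, nearly all from Star (35, 31 and 14 UMIs), with Hsd3b1 at 0 in the 3 libraries. The peritubular list was at 27.5, 27.4 and 17.5 CPM and the endothelial list at 7.26, 5.20 and 7.50 CPM. The part of such cells in the results was not tested.

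The genes are spread over the genome (GRCm38, GENCODE vM21 annotation), with Gdnf at chr15:7810846-7837575, Fgf2 at chr3:37348346-37410108, Lif at chr11:4257557-4272514, Csf1 at chr3:107741048-107760469 and Igf1 at chr10:87858265-87937042. The others are Wnt5a at chr14:28504750-28527448, Bmp4 at chr14:46383520-46390669, Hgf at chr5:16553495-16620152, Tgfb1 at chr7:25687002-25705077 and Ptn at chr6:36714929-36810220. No counted gene on the same strand overlaps any of the 10. Counted antisense genes overlap Fgf2, Igf1, Wnt5a and Bmp4, and whether the counting told the strands apart is not given in the sources used here, so that these 4 are the less certain ones.

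Comparing feeder with germ cells within each library asked which class made the factors. In feeder cells 8 of the 9 genes that could be tested were higher, namely Gdnf, Fgf2, Lif, Csf1, Igf1, Wnt5a, Hgf and Ptn. The test was edgeR's quasi-likelihood test on UMIs summed per library and class, with the library as a block and Benjamini-Hochberg adjustment over 15659 genes, of which 41.8% were called higher in feeder cells. The median log2 difference over the 9 genes was 4.77, compared with 0.03 over all genes. The genes had been chosen with earlier results of these data known, which limits what this count and median show. Tgfb1 did not pass the test, and Bmp4, which had too few UMIs for it, was held mainly by germ cells. Both classes thus held Tgfb1.

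**Figure D1:**
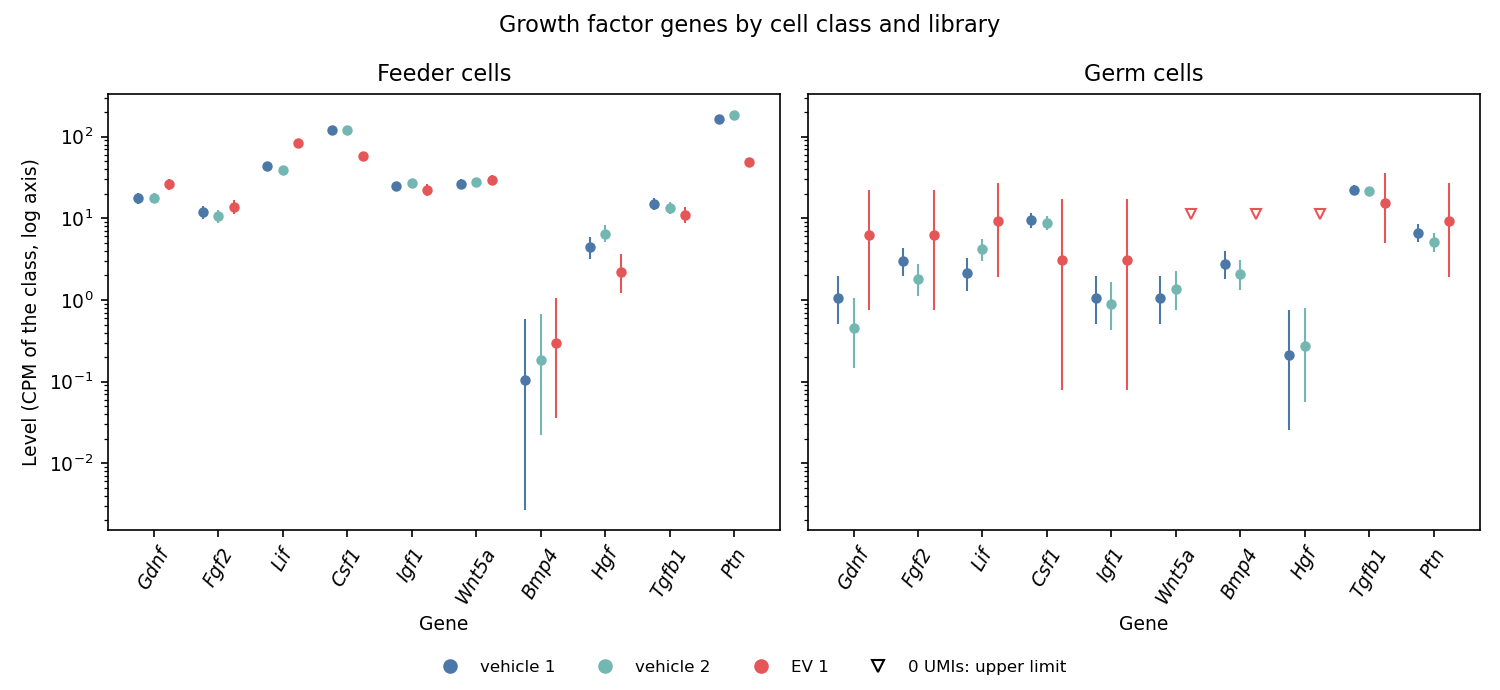
Level of each growth factor gene in CPM of the class (log axis) in feeder cells (left) and germ cells (right), with a point per library and its 95% Poisson interval, and open triangles at the upper limit where no UMI was counted. Ptn stands at 165, 184 and 48.8 in feeder cells and at 6.66, 5.15 and 9.25 in germ cells, and the wide intervals of EV 1 on the right come from its 226 germ cells.

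Gdnf, the ligand of GFRA1 and RET, was at 17.6 and 17.6 CPM in the feeder cells of the vehicle libraries and at 26.0 CPM in those of EV 1, from 167, 190 and 177 UMIs. In germ cells it was at 1.06, 0.452 and 6.17 CPM, the last from 2 UMIs. Both vehicle libraries thus had it far above the germ cell level, with a log2 difference of 4.77 ± 0.253 (SE of the fit, edgeR adjusted p = 6.94e-16).

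Fgf2, a mitogen of spermatogonia, was less sharply divided. Feeder cells held 11.9, 10.6 and 13.8 CPM and germ cells 2.96, 1.81 and 6.17 CPM, a log2 difference of 2.57 ± 0.215 (edgeR adjusted p = 1.3e-11). The germ cell level was 24.9% and 17.1% of the feeder level in the vehicle libraries. For the other 7 genes called higher in feeder cells it lay between 2.56% (Gdnf) and 10.6% (Lif) of the feeder level, and for the fibroblast marker list, which includes Vim and Thy1, it was 10.6% and 8.51%. The part of RNA from feeder cells in the germ cell levels was not tested.

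Lif, an interleukin-6 family cytokine, and Csf1, the macrophage growth factor, gave log2 differences of 4.03 ± 0.172 (edgeR adjusted p = 6.56e-18) and 4.07 ± 0.126 (edgeR adjusted p = 1.44e-20). Ptn, which encodes the heparin-binding factor pleiotrophin, had a log2 difference of 5.20 ± 0.176 (edgeR adjusted p = 6.35e-20). Igf1, Wnt5a, a ligand of the ROR receptors, and Hgf, the ligand of MET, differed by 5.02, 4.86 and 4.77 on the log2 scale.

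Tgfb1, for transforming growth factor beta 1, was the exception among the genes with ample UMIs. Its levels were 14.9, 13.5 and 11.0 CPM in feeder cells and 22.3, 21.3 and 15.4 CPM in germ cells, so that germ cells were higher in both vehicle libraries. In EV 1 the germ cell level rests on 5 UMIs, and its interval of 5.00 to 36.0 CPM includes the feeder level. With TMM scaling, which centres the log2 differences of the genes near 0, the log2 difference was -0.25 ± 0.125 (edgeR adjusted p = 0.0662). With library sizes alone, which moved the median of all genes from 0.03 to -0.35, it was -0.62 (edgeR adjusted p = 9.71e-05), and this setting was added after the data were seen.

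Bmp4, a bone morphogenetic protein, had 1, 2 and 2 UMIs in the feeder cells of vehicle 1, vehicle 2 and EV 1. The germ cells of the vehicle libraries held 26 and 23 UMIs, or 2.75 and 2.08 CPM, which was 89.7% and 79.3% of all its UMIs in those libraries. In the germ cells of EV 1 it had 0 UMIs, where up to 11.4 CPM would have been possible, so that a difference between the groups was not detectable at this depth. In a fit without the filter on low counts, in which 27.1% of genes were higher in germ cells, its log2 difference between feeder and germ cells was -3.17 (edgeR adjusted p = 7.43e-07), and with the vehicle libraries alone, where that share was 43.0%, it was -3.53 (edgeR adjusted p = 6.88e-06).

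**Figure D2:**
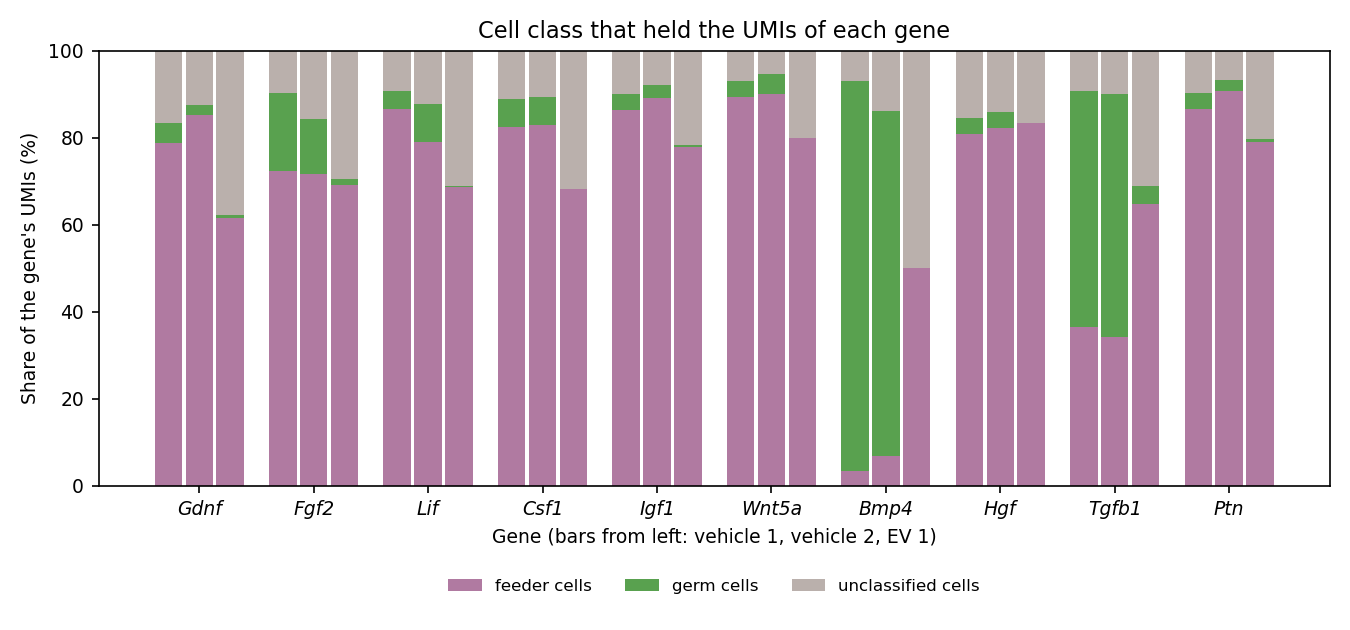
Share of the UMIs of each gene, in percent, that lay in feeder, germ and unclassified cells, with 3 bars per gene for vehicle 1, vehicle 2 and EV 1. Bmp4 and Tgfb1 are the genes with most of their UMIs in germ cells in the vehicle libraries, and the unclassified share of Gdnf goes from 16.5% and 12.6% to 37.8% in EV 1.

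The receptors were then read in the same fit. Of 27 receptor genes 26 could be tested, of which 11 were higher in feeder cells and 8 in germ cells (background 41.8% and 40.1%), with a median log2 difference of 0.05. The pair for GDNF lay in germ cells, with Gfra1 at -4.54 and Ret at -5.49 on the log2 scale (edgeR adjusted p = 2.11e-20 and 1.72e-20). Ror2, which binds WNT5A, was also a germ cell gene at -5.35, while its relative Ror1 was a feeder gene at 4.57. Among the genes for LIF signalling, Lifr did not pass the test (log2 difference -0.06, edgeR adjusted p = 0.671) and Il6st was higher in feeder cells (1.43). Met, the HGF receptor, was higher in feeder cells (edgeR adjusted p = 2.95e-12), as was Alk, a receptor of pleiotrophin, with a log2 difference of 1.37. Ptprz1, another pleiotrophin receptor, with 37 UMIs in germ cells, was higher in germ cells (-1.19, edgeR adjusted p = 0.0219).

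The remaining receptors with at least 50 UMIs in germ cells follow by ligand. For FGF, Fgfr1 was higher in feeder cells (1.21), Fgfr4 in germ cells (-2.82), Fgfr2 did not pass the test (0.05), and Fgfr3 was not tested. Igf1r, the IGF1 receptor, did not pass the test (0.03). Of the WNT receptors, Fzd2 was higher in germ cells by a small margin (-0.27, edgeR adjusted p = 0.0234), and Ryk, Fzd5 and Fzd7 did not pass the test (-0.22, 0.05 and 0.13). The BMP receptors Bmpr1a and Bmpr2 were higher in feeder cells (0.58 and 0.75) and Bmpr1b in germ cells (-0.84). For TGF-beta, Tgfbr2 and Tgfbr3 were feeder genes (3.02 and 4.42) and Tgfbr1 was higher in germ cells (-0.81). Ncam1, a further GDNF receptor, and Sdc3, a syndecan that binds pleiotrophin, were higher in feeder cells (3.28 and 2.76). Csf1r, the receptor of CSF1, had 28 UMIs in germ cells and did not pass the test (-0.37). With library sizes alone 11 receptor genes were still higher in feeder cells and 12 were higher in germ cells, where Fgfr2, Igf1r, Lifr and Ryk joined those of the TMM fit. The shares of all genes were then 33.6% and 50.7%.

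Within feeder cells, EV 1 was next compared with the vehicle libraries. A gene was called where EV 1 was at least 1.5-fold above both vehicle libraries, or as far below both, after 0.5 UMI was added to each sum, among the 12875 genes with at least 50 UMIs in feeder cells. Lif was the growth factor gene called higher, and Csf1, Hgf and Ptn were called lower, so that 1 of 9 was higher (5.36% of all genes) and 3 of 9 lower (11.1% of all genes). Gdnf lay just short of the limit. At 2-fold, passed by 1.84% of all genes upwards and 4.08% downwards, 0 were higher and 2, Csf1 and Ptn, lower, while Hgf lay at that limit, at 0.499 of the nearer vehicle library before the 0.5 UMI was added. The median log2 ratio of the 9 genes was -0.22, beside -0.13 over all genes. Scaling by TMM factors raised the log2 ratio of Lif from 1.00 to 1.13 and that of Gdnf from 0.57 to 0.69, which brought Gdnf past the limit, and called 7.58% of all genes higher and 7.88% lower. All intervals given with these ratios are exact 95% intervals that cover counting error only.

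**Figure D3:**
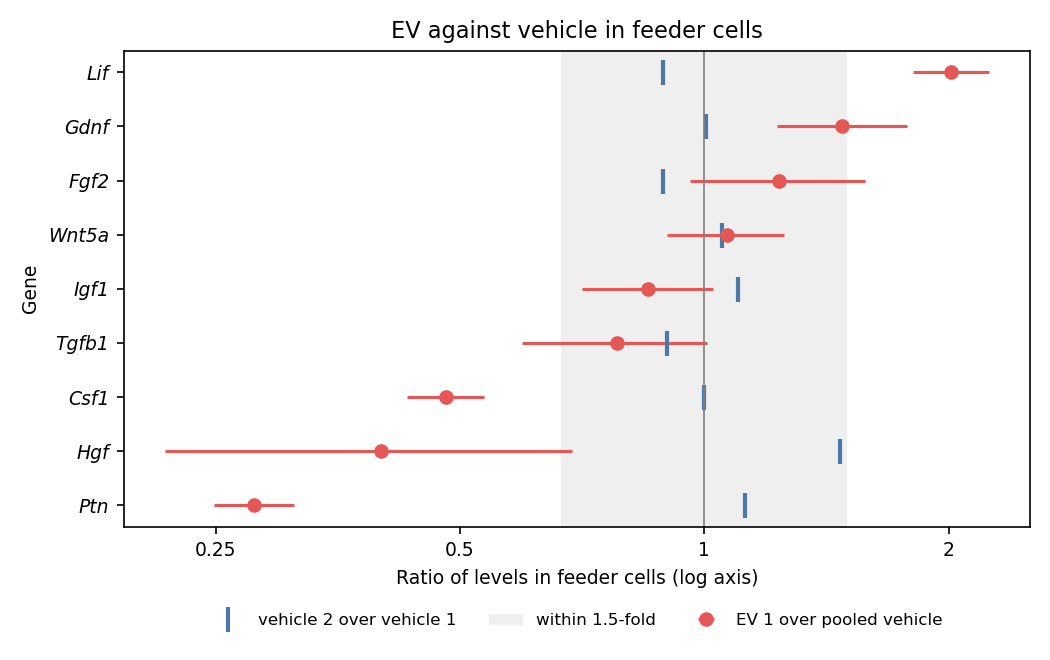
Ratio of the level in the feeder cells of EV 1 to the pooled vehicle libraries (red points with exact 95% intervals, log axis) for the 9 growth factor genes with at least 50 UMIs, with vehicle 2 over vehicle 1 as blue ticks and the range within 1.5-fold shaded. Lif at 2.01 lies to the right of the shaded range, and Csf1 at 0.481, Hgf at 0.400 and Ptn at 0.279 lie to its left.

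Lif was at 44.2 CPM in vehicle 1 (420 UMIs), 39.3 CPM in vehicle 2 (424 UMIs) and 83.7 CPM in EV 1 (569 UMIs). EV 1 was thus above both vehicle libraries, which lay close together. The ratio to the pooled vehicle libraries was 2.01 (1.81 to 2.24), or 1.00 on the log2 scale. Gdnf followed at 1.48 (1.23 to 1.78), with 1.48 against the nearer vehicle library.

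Fgf2 was also higher in EV 1 than in either vehicle library, but with 113, 114 and 94 UMIs its ratio of 1.24 had an interval that included equality (0.961 to 1.58). Wnt5a was at 26.6, 28.0 and 29.1 CPM, with a ratio of 1.06 (0.901 to 1.25), no further from the vehicle libraries than counting error allows.

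Ptn had the lowest ratio of the members. It was at 165 CPM in vehicle 1 (1564 UMIs), 184 CPM in vehicle 2 (1988 UMIs) and 48.8 CPM in EV 1 (332 UMIs), a ratio of 0.279 (0.249 to 0.312). Csf1 was at 119 CPM in both vehicle libraries, from 1133 and 1282 UMIs, and at 57.2 CPM in EV 1, from 389 UMIs. That is a ratio of 0.481 (0.431 to 0.535), where the vehicle libraries differed by 0.003 on the log2 scale.

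Hgf was a scarce transcript, at 4.42, 6.49 and 2.21 CPM from 42, 70 and 15 UMIs. Its ratio of 0.400 (0.216 to 0.688) was below equality, but the vehicle libraries were themselves 0.55 apart on the log2 scale. Igf1 at 24.7, 27.2 and 22.2 CPM and Tgfb1 at 14.9, 13.5 and 11.0 CPM were lower in EV 1 than in both vehicle libraries, with intervals of 0.707 to 1.02 and 0.597 to 1.01 that included equality.

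Germ cells of EV 1 were too few for the same reading. They held at most 5 UMIs of any of the 10 genes, that of Tgfb1, and for each of the 10 the interval of the ratio to the vehicle libraries included equality. For Csf1, for example, 1 UMI was counted in EV 1 beside 89 and 98 in the vehicle libraries, and the interval ran from 0.00852 to 1.91.

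Over all kept cells, where the share of feeder cells differed between libraries (28.4%, 28.7% and 52.5%), the log2 ratios of the 8 genes called higher in feeder than in germ cells were shifted upwards. Lif was at 22.8, 22.3 and 82.7 CPM and Gdnf at 9.98, 9.26 and 28.7 CPM, log2 ratios of 1.88 and 1.58. Csf1 was at 64.7, 64.2 and 57.0 CPM, a log2 ratio of -0.18 in place of -1.06 within feeder cells. In unclassified cells it was at 66.4, 74.4 and 62.3 CPM, while Lif was at 19.7, 29.6 and 88.5 CPM and Ptn at 77.3, 66.3 and 29.3 CPM. Igf1, which was lower in EV 1 within feeder cells, was higher over all cells (12.8, 13.7 and 19.4 CPM). Ptn stayed lower, at 84.9, 91.1 and 41.9 CPM. Tgfb1 and Bmp4 were shifted downwards, with Tgfb1 at 18.3, 17.6 and 11.6 CPM (log2 ratio -0.63) and Bmp4 at 1.36, 1.20 and 0.399 CPM (-1.69, from 29, 29 and 4 UMIs).

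The share of feeder cells with a UMI was compared at a common depth, with each cell thinned to 1000 UMIs. For Lif it was 4.51% (95% exact binomial interval 3.69 to 5.45) in vehicle 1, 3.67% (2.96 to 4.50) in vehicle 2 and 8.30% (7.21 to 9.50) in EV 1. In germ cells of the vehicle libraries, the background, it was 0.211% and 0.428%. In the germ cells of EV 1 it was 1.12% (0.136 to 4.00), from 2 of 178 cells. At this depth 86, 55 and 186 feeder cells were too shallow and were left out. Without thinning the Lif share was 13.9% in vehicle 1 and 18.4% in EV 1, whose feeder cells were shallower.

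Csf1 went the other way, with 10.4%, 10.2% and 5.29% of feeder cells at 1000 UMIs, as did Ptn with 13.7%, 14.3% and 4.39%. The germ cell shares in the vehicle libraries were 0.959% and 0.964% for Csf1 and 0.749% and 0.493% for Ptn, far below those of feeder cells in these libraries. In the 178 germ cells of EV 1 the share was 0% (up to 2.05) for Csf1 and 1.12% (0.136 to 4.00) for Ptn. The interval for Ptn overlapped that of the feeder cells of EV 1 (3.59 to 5.30). For Gdnf the shares were 1.77%, 1.78% and 2.58%, with intervals that overlapped. The other 6 genes were seen in under 3% of feeder cells in each library, and no order is read from them.

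Feeder cells of EV 1 differed from those of the vehicle libraries in state as well. The metallothionein genes Mt1 and Mt2 together had a median of 18.6, 17.7 and 64.5 UMIs per 10000 UMIs, and 72.7% of the feeder cells of EV 1 fell in the range of high metallothionein, cut so that the vehicle feeder cells fill the low, middle and high ranges evenly. Feeder cells with a UMI of the proliferation genes Mki67 or Top2a made up 12.2%, 11.3% and 2.19%, and those with a UMI of an interferon list 36.9%, 36.5% and 12.6%. The ratios were therefore taken again within 10 strata of feeder cells, set by these genes and by UMIs per cell. Strata cut from such scores are ranges, not cell types, and they overlap, since each cell enters 1 stratum of each kind.

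**Figure D4:**
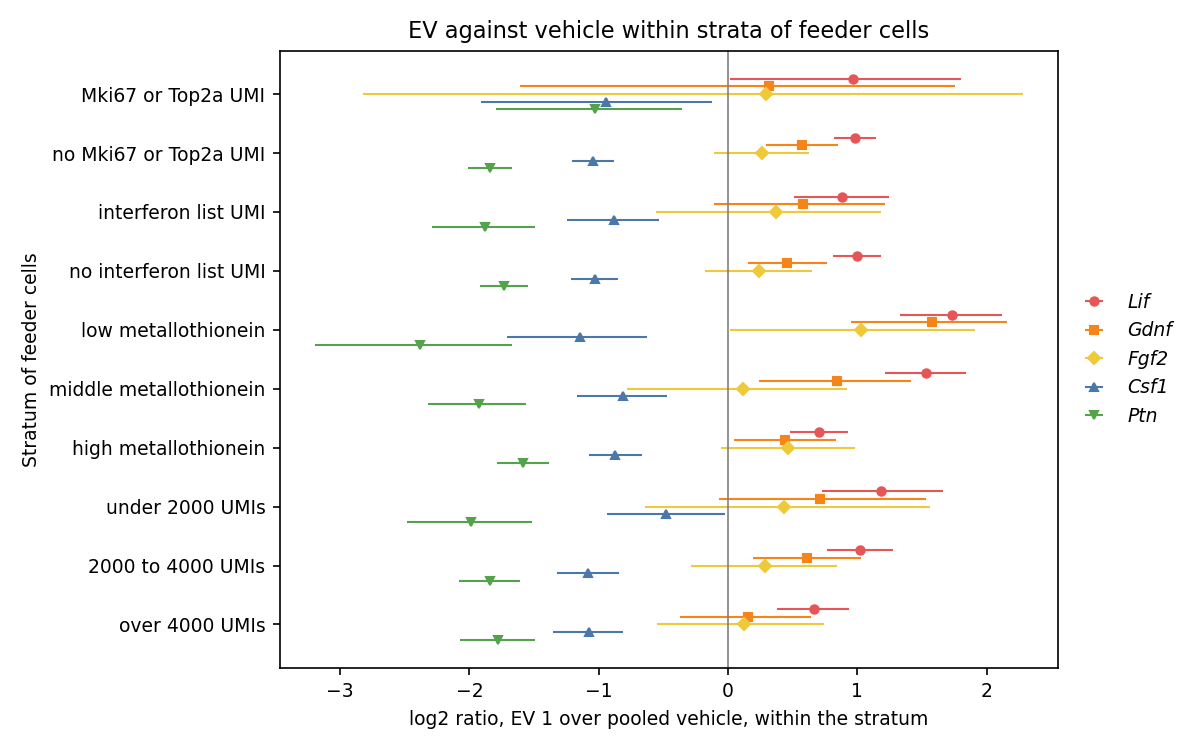
log2 ratio of EV 1 to the pooled vehicle libraries within 10 strata of feeder cells for 5 growth factor genes, with exact 95% intervals. Lif, Gdnf and Fgf2 lie to the right of 0 in the 10 strata and Csf1 and Ptn to the left, and Lif and Gdnf lie furthest to the right at low metallothionein.

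Lif, Gdnf and Fgf2 were above both vehicle libraries in 10 of 10 strata, and Csf1 and Ptn below both in 10 of 10. Genes that were not called in feeder cells were nearly as even, with Tgfb1 below both in 9 strata, Igf1 below both in 8 and Wnt5a above both in 8. For Fgf2 the interval of the ratio included equality in 9 of the 10 strata and for Gdnf in 4, whereas for Lif, Csf1 and Ptn it did so in none. In cells with a UMI of Mki67 or Top2a, EV 1 had only 4 UMIs of Gdnf and 2 of Fgf2. Lif had its highest ratio, 3.33 (2.52 to 4.35), at low metallothionein, and 2.89 (2.32 to 3.58) and 1.63 (1.40 to 1.90) in the middle and high ranges. Gdnf showed the same order, with 2.98 (1.94 to 4.45), 1.79 (1.18 to 2.67) and 1.36 (1.03 to 1.78). The low range held 200 feeder cells of EV 1, beside 750 and 858 of the vehicle libraries.

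By depth, the Lif ratio was 2.27 (1.65 to 3.16) in feeder cells under 2000 UMIs and 1.58 (1.30 to 1.91) in those over 4000 UMIs. Gdnf at over 4000 UMIs had a ratio of 1.11 (0.774 to 1.56), which included equality. The Csf1 ratio ranged from 0.453 at low metallothionein to 0.719 (0.524 to 0.984) in cells under 2000 UMIs, and that of Ptn from 0.192 to 0.491.

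Hgf was below both vehicle libraries in 8 of 10 strata. It was not in cells with a UMI of the interferon list (ratio 1.32, 0.502 to 2.94) or at low metallothionein (1.03, 0.204 to 3.24). In cells without a UMI of the interferon list its ratio was 0.237 (0.0985 to 0.496). The part of the cell states, of depth and of the shift in library makeup in these differences was not tested, and the treatment cannot be told apart from other differences between EV 1 and the vehicle libraries.

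The promoters of Lif and Csf1 are shown because these genes differed between EV 1 and the vehicle libraries in opposite directions. RefSeq windows from 250 bases before to 50 bases after the start site (GRCm38.p6) were matched for 9 of the 10 genes, in 11 windows. Capitals mark matches, on either strand, to AP-1 (TGACTCA) and to the NF-kB consensus.
Lif promoter (chr11:4257318-4257617, plus strand): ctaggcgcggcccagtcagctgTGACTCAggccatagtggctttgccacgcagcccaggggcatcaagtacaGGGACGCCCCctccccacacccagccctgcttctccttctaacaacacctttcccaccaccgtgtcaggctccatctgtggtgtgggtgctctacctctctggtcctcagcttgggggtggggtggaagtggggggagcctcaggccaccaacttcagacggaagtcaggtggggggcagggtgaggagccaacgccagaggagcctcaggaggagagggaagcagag
Csf1 promoter (chr3:107760420-107760719, minus strand): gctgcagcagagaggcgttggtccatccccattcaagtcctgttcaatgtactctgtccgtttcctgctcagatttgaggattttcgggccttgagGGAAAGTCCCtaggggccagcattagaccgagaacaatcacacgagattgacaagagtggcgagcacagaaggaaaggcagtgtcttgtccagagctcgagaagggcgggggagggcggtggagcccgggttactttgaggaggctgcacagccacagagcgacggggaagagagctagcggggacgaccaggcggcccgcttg
The Lif window held 1 AP-1 match, at position -228 from the start site, and 1 NF-kB match, at -178. AP-1 matches were found in 5.20% of all 32851 windows and NF-kB matches in 8.46%. The Csf1 window held an NF-kB match at -154 and no AP-1 match, and the Tgfb1 window an NF-kB match at -140. The palindrome of the cyclic AMP response element, in 1.79% of all windows, was found in none of the 11 windows, and the core of the metal response element (TGCACNC or TGCGCNC, in 25.7%) was found 2 times in that of Fgf2 and in no other. No match overlapped another in the windows shown. A match is a run of letters and not a binding site.

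Further lists of related genes, 3 in number and chosen with earlier results of these data known, were read in feeder cells by the same rule. Over all genes the shares were 5.36% higher and 11.1% lower and the median log2 ratio was -0.13, and the counts of the lists are to be read beside these. Of 21 receptor genes with enough UMIs 2 were higher and 3 lower, with a median log2 ratio of -0.07. Fzd7, a WNT receptor, was at 11.0, 11.4 and 22.5 CPM and Bmpr1b at 2.00, 1.58 and 3.38 CPM. Ror1 was at 125, 127 and 48.1 CPM, Tgfbr3 at 495, 516 and 330 CPM and Gfra1 at 7.47, 6.31 and 3.24 CPM. Gfra1 was a germ cell gene in the fit above, and the germ cell markers were lower in the feeder cells of EV 1 too. The part of germ cell RNA in the feeder level of Gfra1 was not tested.

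Of 11 regulators that act on growth factors or their signalling outside the cell 0 were higher and 3 lower (5.36% and 11.1% of all genes), with a median log2 ratio of -0.21 (-0.13 over all genes). Fst, for the activin antagonist follistatin, was at 28.7, 28.8 and 17.2 CPM. Ltbp2, of the latent TGF-beta binding protein family, was at 12.3, 13.8 and 5.44 CPM, and Spint2, an inhibitor of the proteases that activate HGF, at 6.10, 4.27 and 0.883 CPM. Spint2 was likewise a germ cell gene (log2 difference -5.03, edgeR adjusted p = 4.35e-19). The part of germ cell RNA in its feeder level was not tested.

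Of 21 other ligands 3 were higher and 2 lower (5.36% and 11.1% of all genes), with a median log2 ratio of 0.17 (-0.13 over all genes). Il34, the second ligand of the CSF1 receptor, was at 55.6, 54.3 and 99.6 CPM, a ratio of 1.81 (1.65 to 2.00) and thus in the direction opposite to Csf1. Csf3, for granulocyte colony-stimulating factor, was at 6.00, 5.38 and 11.3 CPM and Vegfa, the vascular growth factor, at 85.1, 90.1 and 146 CPM. Nrtn, a GDNF family ligand, was at 4.95, 6.03 and 2.50 CPM and was higher in germ cells (log2 difference -2.28). For Nrtn too the part of germ cell RNA in the feeder level was not tested. Fgf10 was at 3.68, 3.53 and 2.21 CPM with an interval of 0.327 to 1.08.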

How the data were processed

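Libraries had been made with the 10x Genomics droplet protocol. The deposited matrices hold unnormalized UMI counts, which the authors obtained from reads aligned to mm10 (GENCODE vM23) and counted with Cell Ranger 7.0.1, per the file headers and the methods of the study. Counts of vehicle 1, vehicle 2 and EV 1 entered, with groups and replicate numbers from the sample titles. The titles call the libraries of a group biological replicates, and the study describes 2 independent experiments, whereas the extraction protocol describes 1 culture, set up from 3 mice. The spread between libraries, on which the p-values and the agreement of the vehicle libraries rest, may therefore be technical in part. The 3 libraries held 23686047, 27444797 and 10793232 UMIs.

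As in the study, a cell needed more than 400 but fewer than 4000 genes, and less than 10% of its UMIs from mitochondrial genes. The highest Scrublet scores (scanpy 1.11.5) were removed at 0.8% per 1000 cells, or 633, 697 and 198 cells, while the study used DoubletFinder. UMIs were summed per library and class. Feeder and germ sums were compared with edgeR 4.0.16 (R 4.3.3), using filterByExpr, TMM and glmQLFit with the library as a block. This pairing is by construction, since both classes come from the same library. Both scripts were tested on simulated data. EV 1 was set against the vehicle mean as a log2 ratio with 0.5 UMI added and, as a ratio, against the pooled vehicle sums with exact conditional intervals. Levels carry exact Poisson intervals and shares exact binomial ones. Shares at 1000 UMIs are the expected number of cells with a UMI after thinning without replacement, rounded. All intervals cover counting error only. The study tested cells as replicates, which was not done here.

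The growth factor genes, gene lists and rules were chosen with earlier results of these data known. All 10 genes are named. From the lists of receptors, extracellular regulators and other ligands, the text names the genes past the fold rule in feeder cells, at most 4 in each direction, and receptors with at least 50 UMIs in germ cells. Csf1r and Ptprz1 fell short of that number and were named after their values were seen, as were the marker genes given in the text. Sequences came from RefSeq tables (GRCm38.p6), and gene positions from GENCODE vM21. A search of the transcripts for microRNA seed sites is not reported here. Other scalings, class rules, filters, folds and left-out libraries were tried, with DESeq2 1.42.0 among them.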

Additional observations from a re-analysis of the deposited data

Results flagged for a closer look

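Ptn had opposite directions in the classes: EV 1 was below both vehicle libraries in feeder cells (48.8 beside 165 and 184 CPM, log2 ratio -1.84) and above both in germ cells (9.25 beside 6.66 and 5.15 CPM). The germ cell value of EV 1 rests on 3 UMIs, and its ratio to the pooled vehicle libraries was 1.58, with an interval of 0.322 to 4.73 that included equality. The difference between the classes was not tested.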

How the results depend on the processing

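The count of growth factor genes higher in feeder cells than in germ cells was 8 under each of the 10 alternatives, including the fit with no replicate block, where Gdnf had a log2 difference of 4.98 and Tgfb1 of -0.29. The count higher in germ cells was 0, and 1 with no filter on low counts (Bmp4), 1 with doublets kept (Tgfb1, edgeR adjusted p = 0.0471), 1 with library sizes alone (Tgfb1), and from 0 to 1 on leaving out a library, the latter without EV 1 (Bmp4). Library sizes alone gave 33.6% of all genes higher in feeder cells and 50.7% in germ cells. No paired analysis was possible for EV against vehicle because the expression of EV 2 was not analysed here, so that the groups shared 1 number. Each of the 9 genes with enough UMIs kept its direction under each alternative in feeder cells that gave it a value, also those that were not called (Wnt5a from 0.01 to 0.22 on the log2 scale). Lif, Csf1, Ptn and Gdnf had log2 ratios of 0.92 to 1.13, -1.12 to -0.93, -1.94 to -1.71 and 0.43 to 0.71. The count of genes higher in EV 1 was 2 with TMM factors, DESeq2 size factors, doublets kept, a class minimum of 1 UMI, the mean over cells (Gdnf and Lif in each, with 5.19% to 7.64% of all genes higher) and no minimum of UMIs (Lif and Bmp4, with 3586 of 25637 genes higher), and 0 at 2-fold, which 1.84% of all genes passed upwards. Their median log2 ratio was -0.10 with TMM factors and -0.09 with DESeq2 size factors (0.00 over all genes with each), -0.06 with no minimum of UMIs and -0.04 after thinning, where Hgf had too few UMIs. Leaving out a vehicle library gave -0.28 to -0.15. By share of feeder cells with a UMI, the number of genes higher in EV 1 was 5 at 1000 UMIs, 3 at 2000 UMIs and 1 without thinning (8 lower), counts that include the 6 scarce genes from which no order is read. Any margin past both vehicle libraries was counted here, and the share over all genes was not taken for this rule. These counts therefore have no background and are not read as a result. Depth limits Bmp4 and Hgf in feeder cells and all 10 genes in the germ cells of EV 1.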
